A study of Mus musculus and Homo sapiens
Mus musculus with 16 samples.

Results

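H3K4me3 PLAC-seq in mouse fetal forebrain gave 8910 chromatin interactions that were listed in both libraries of the embryonic stage E16.5 and in neither library of E12.5. Each interaction is a pair of bins of 10 kb on the same chromosome. The members were selected on the authors' own lists, as pairs with the same chromosome and the same 2 bin starts. They made up 42.9% of the 20787 pairs in both E16.5 lists, and 15.2% of the 58543 pairs in any of the 4 lists. The rule used the contrast between the stages, so what is given below of the members at E12.5 and E16.5 is a description with no test. All 8910 members have a value in both E16.5 libraries, and none was removed by a filter.

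The series held 16 samples, of which the other 12 are not analysed here. The samples used were 2 libraries of forebrain at E12.5 and 2 at E16.5, both labelled as fetal, with no genotype, strain, sex or treatment given for these tissues. The frozen tissue was crosslinked and cut with MboI, and nearby DNA ends were ligated. The labels do not say whether the replicates are separate litters or embryos, so any p-value reflects the spread among these 4 libraries alone, and that spread may be technical.

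In PLAC-seq, stretches of DNA that touch inside the nucleus are ligated to each other and the ligated fragments are pulled down with an antibody, here against H3K4me3, a histone mark of active and poised promoters. It therefore reads contacts that promoters make with distant DNA, such as enhancers and other promoters. Distal enhancers of brain genes can lie far from the gene they act on, often in gene deserts or inside other genes. Between these stages the forebrain goes from a tissue rich in dividing progenitors to one rich in postmitotic neurons that migrate, extend axons and begin to form synapses. In such bulk tissue, more cells with a contact and more contact per cell cannot be told apart.

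The lists differed in length, which bears on every count below. The E12.5 libraries listed 18413 and 16075 interactions, and the E16.5 libraries listed 35291 and 36794. The read pairs in listed interactions came to 446855 and 405491 at E12.5, against 892987 and 911710 at E16.5. The median interaction held 19 and 20 read pairs at E12.5 and 19 in each library at E16.5. Only interactions past the authors' threshold are listed, with an observed count of at least 2 times the expected count and a false discovery rate (FDR) up to 0.01. Depth over the whole genome is unknown, so a pair that is not listed at E12.5 is not known to be without contact there.

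The DNA at 4 of the bins that gathered many members follows, since these genes anchor much of what follows and their promoters differ in CpG content. Each line gives 300 bases of mouse build GRCm38.p6 from RefSeq, from 250 bases before to 50 after 1 of the gene's listed starts, on the gene's strand, with each CG dinucleotide in capitals. Prdm8 lies at chr5:98180619-98180918 on the plus strand, Arpp21 at chr9:112233673-112233972 on the minus strand, Cnr1 at chr4:33924014-33924313 on the plus strand and Plk2 at chr13:110394794-110395093 on the plus strand. These windows held 12, 5, 40 and 31 CG dinucleotides, in that order.
Prdm8: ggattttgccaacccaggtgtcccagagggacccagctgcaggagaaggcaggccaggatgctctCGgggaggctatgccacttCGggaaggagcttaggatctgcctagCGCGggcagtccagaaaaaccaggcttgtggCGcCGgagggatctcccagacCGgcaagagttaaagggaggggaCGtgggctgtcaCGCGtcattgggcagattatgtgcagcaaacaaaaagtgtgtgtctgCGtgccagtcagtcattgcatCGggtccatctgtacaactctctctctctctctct
Arpp21: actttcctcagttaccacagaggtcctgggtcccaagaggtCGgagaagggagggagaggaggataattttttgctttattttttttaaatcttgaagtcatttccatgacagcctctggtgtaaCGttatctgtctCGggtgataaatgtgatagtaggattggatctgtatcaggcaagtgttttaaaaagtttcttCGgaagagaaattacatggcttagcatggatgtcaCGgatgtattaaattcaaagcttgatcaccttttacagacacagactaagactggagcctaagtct
Cnr1: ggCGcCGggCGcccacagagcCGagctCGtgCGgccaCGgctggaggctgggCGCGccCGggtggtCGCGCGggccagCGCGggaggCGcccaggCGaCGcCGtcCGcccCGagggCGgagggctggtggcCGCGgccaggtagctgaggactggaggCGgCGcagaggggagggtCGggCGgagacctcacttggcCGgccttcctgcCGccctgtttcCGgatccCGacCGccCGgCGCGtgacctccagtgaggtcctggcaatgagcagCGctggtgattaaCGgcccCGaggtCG
Plk2: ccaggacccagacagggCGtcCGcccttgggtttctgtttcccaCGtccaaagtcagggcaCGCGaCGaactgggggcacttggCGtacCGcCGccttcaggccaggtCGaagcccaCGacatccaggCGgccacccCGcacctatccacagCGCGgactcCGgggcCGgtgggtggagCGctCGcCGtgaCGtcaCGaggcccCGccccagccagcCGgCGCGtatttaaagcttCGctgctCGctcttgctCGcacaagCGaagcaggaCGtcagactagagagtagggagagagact

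The Prdm8 start had the most members of any bin, with 45. Prdm8 encodes a transcriptional regulator that acts in cortical projection neurons. Its bin, chr5:98180001-98190000, was listed with 3 and 0 interactions in the E12.5 libraries and with 55 in each E16.5 library. All 45 members ran to one side, upstream of the gene, and spanned 160 to 1000 kb with a median of 710 kb. The member with the highest observed count over expected joined Prdm8 to chr5:97410001-97420000, 770 kb away, with 37 and 36 read pairs where the authors' model expected 3.57 and 2.37. Of the 45, 5 lay within 1 bin of an interaction listed at E12.5, of which the bin had few.

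Arpp21 was the only one of the 20 gene bins with the most members that was at 0 in both E12.5 lists. It encodes a cAMP-regulated RNA-binding phosphoprotein of forebrain neurons. Its start bin, chr9:112230001-112240000, touched 0 and 0 listed interactions at E12.5 against 37 and 44 at E16.5. The 27 members again lay on a single side, upstream, at 210 to 990 kb. The pair of Arpp21 with chr9:113170001-113180000, 940 kb away, had 58 and 47 read pairs against 4.23 and 3.17 expected, which is 13.7 and 14.8 times the expected count.

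Of the transcriptional regulators among these 20 gene bins, some were already listed often at E12.5 and others seldom. Sox11, a transcription factor of immature neurons, had 29 members at its start bin. That bin was already busy, with 45 and 57 listed interactions at E12.5 against 92 in each library at E16.5. Of its members, 25 lay upstream and 4 downstream. Myt1l, a zinc finger factor that represses non-neuronal genes in neurons, had 27 members at one bin and 48 over all the bins of its starts. Over these bins 6 and 2 interactions were listed at E12.5 against 65 and 100 at E16.5. Myt1l thus stood at the low end at E12.5 and Sox11 at the high end, while their member counts at a single bin were close.

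Tshz3, a zinc finger factor of deep-layer projection neurons, shares its start bin with the predicted gene Gm36722, and the reads of the 2 genes cannot be separated. This bin had 27 members, with 19 and 27 listed interactions at E12.5 against 65 and 77 at E16.5. Runx1t1, a transcriptional corepressor, had 29 members, with 10 and 9 listed at E12.5 against 48 and 50 at E16.5. The members of both lay almost wholly toward lower coordinates, 26 at Tshz3 and 28 at Runx1t1. The Tshz3 bin also had partners listed at E12.5 toward higher coordinates, between 240 and 670 kb away.

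Id2, an inhibitor of basic helix-loop-helix factors, had 27 members, all upstream, and 19 and 15 listed interactions at E12.5 against 54 and 55 at E16.5. Myc, the proto-oncogene that drives growth, had 28 members, all toward higher coordinates, at 300 to 1000 kb. Its bin held 9 and 10 listed interactions at E12.5 against 48 and 64 at E16.5. Nr4a3, an orphan nuclear receptor induced by neuronal activity, had 25 members, 22 of them upstream, with 6 and 3 listed at E12.5 against 37 and 47 at E16.5. In each of these 3 bins the lower E16.5 value was above the higher E12.5 value, an outcome the rule favours for any bin with many members. Of the 488 bins with at least 5 members, the stages overlapped in 9, and other listed bins were not counted in this way.

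**Figure D1:**
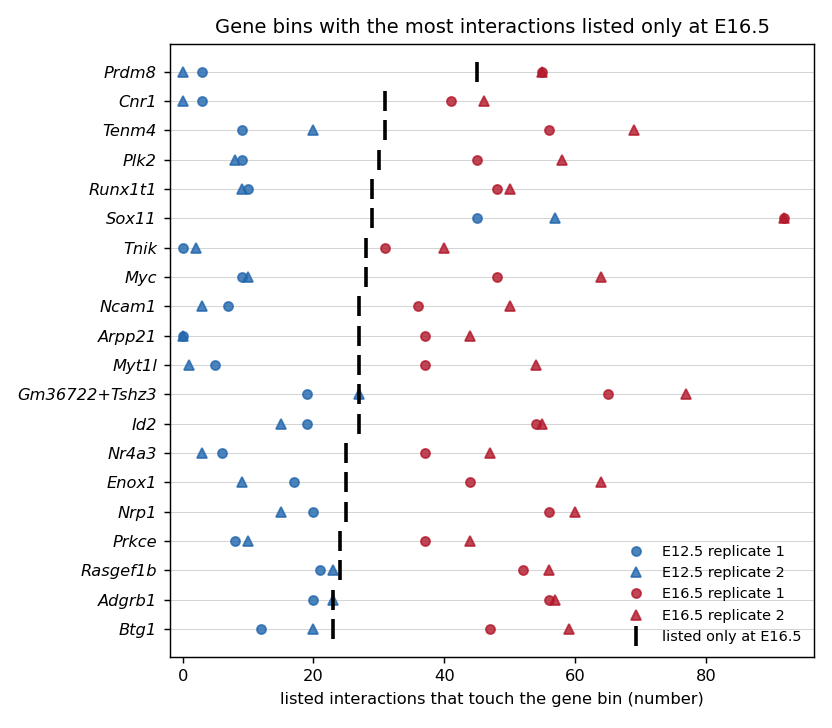
Number of listed interactions (horizontal axis) that touch each of the 20 gene bins with the most members, 1 row per bin. Circles are replicate 1 and triangles replicate 2, blue for E12.5 and red for E16.5; the black bar is the number listed in both E16.5 lists and neither E12.5 list. All E16.5 points lie to the right of the E12.5 points of the same row, which the rule favours for bins with many members. The E16.5 values run from 31 at Tnik to 92 at Sox11.

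Among receptors and adhesion molecules, Cnr1, the CB1 cannabinoid receptor, had 31 members, with 3 and 0 listed interactions at E12.5 against 41 and 46 at E16.5. Of these, 24 lay upstream and 7 downstream, and 3 were within 1 bin of an E12.5 interaction. Tenm4, a teneurin that mediates cell adhesion across synapses, also had 31, but its bin already held 9 and 20 at E12.5, against 56 and 69 at E16.5. Tenm4 differed in direction too: 27 of its members lay downstream, and 25 had their other end inside the Tenm4 gene itself.

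Ncam1, the neural cell adhesion molecule, had 27 members, split into 13 toward lower and 14 toward higher coordinates, and 12 stayed inside the gene. Its bin held 7 and 3 listed interactions at E12.5 against 36 and 50 at E16.5. Nrp1, a receptor for semaphorins and vascular growth factor, had 25 members, all upstream, at 340 to 990 kb, with 20 and 15 listed at E12.5 against 56 and 60 at E16.5. Its member with the highest observed over expected ended inside Pard3, a polarity gene, 820 kb away, with 23 and 30 read pairs. At Nrp1 16 of the 25 members lay within 1 bin of an E12.5 interaction, more than at any other of the 20 bins. Adgrb1, an adhesion G protein-coupled receptor, had 23 members, all toward lower coordinates, with 20 and 23 listed at E12.5 against 56 and 57 at E16.5.

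Among kinases, Plk2, a polo-like kinase induced by synaptic activity, had 30 members, all downstream, at 230 to 1000 kb. They included 10 consecutive partner bins, and the bin held 9 and 8 listed interactions at E12.5 against 45 and 58 at E16.5. Tnik, a kinase found at synapses, had 28 members, of which 25 ended inside Tnik. Only 0 and 2 interactions were listed at its bin at E12.5, against 31 and 40 at E16.5. Prkce, protein kinase C epsilon, had 24 members with the longest unbroken run, 15 consecutive partner bins, and 18 ended inside the gene. Its members were short for this group, with a median of 205 kb, and the bin held 8 and 10 listed at E12.5 against 37 and 44 at E16.5.

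Rasgef1b, an exchange factor for Rap proteins, had 24 members, all upstream, with 21 and 23 listed interactions at E12.5 against 52 and 56 at E16.5. Enox1 had 25 members, all downstream and 18 of them inside Enox1, with 17 and 9 listed at E12.5 against 44 and 64 at E16.5. Btg1, which restrains proliferation, had 23 members, 19 of them downstream, with 12 and 20 listed at E12.5 against 47 and 59 at E16.5. Tenm4, Tnik, Prkce and Enox1 thus had most of their members within their own long gene bodies, whereas Prdm8, Arpp21, Cnr1, Plk2 and Id2 had 0 partners inside their own gene. Listed pairs lie at least 20 kb apart, so a short gene could hold no such partner.

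**Figure D2:**
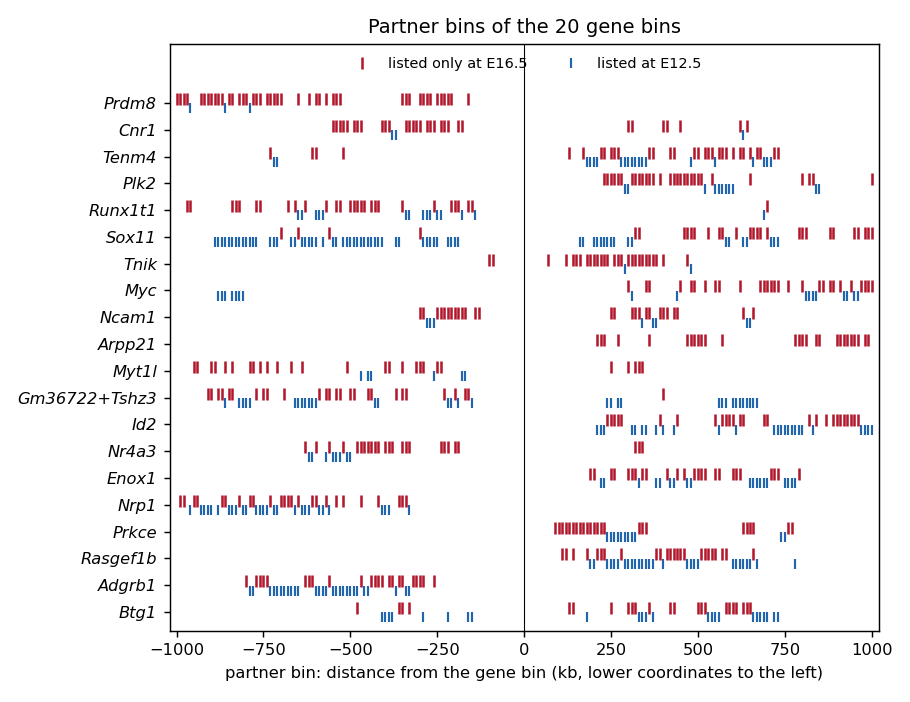
Position of the partner bins of the same 20 gene bins, as distance from the gene bin in kb, with lower coordinates to the left. Red marks are the interactions listed only at E16.5 and blue marks those in at least 1 E12.5 list. Prdm8, Nrp1 and Adgrb1 have red marks only to the left, Plk2, Myc, Arpp21, Id2, Enox1, Prkce and Rasgef1b only to the right, and Arpp21 has no blue mark.

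More generally, 3214 of 20665 autosomal protein-coding genes (15.6%) had at least 1 member at their bin, and 364 (1.76%) had at least 5. The members touched 10913 bins, of which 8154 (74.7%) were touched by 1 member. A bin with at least 5 members is called a hub here, and there were 488 hubs with up to 45 members each. Hubs held an end of 4135 members (46.4%), and 67.8% of hubs carried a gene, against 27.0% of all bins touched. The rule filled these bins, so their E12.5 and E16.5 numbers are given with no test: 85 hubs (17.4%) were at 0 in both E12.5 lists, and 346 (70.9%) touched at least 1 in both. In 9 hubs the numbers of the stages overlapped, and the same share over all listed bins was not counted.

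The members of a hub tended to lie on one side. In 310 of the 488 all members lay on the same side of the bin. Members leave out pairs listed at E12.5, so the other side need not be without contacts. Myc, with all members toward higher coordinates, had partners listed at E12.5 from -880 to -810 kb. One-sidedness was not counted for other sets of pairs. In the 223 hubs that could be oriented by the start and strand of a single gene, 1210 members lay downstream and 876 upstream, a share of 58.0% downstream. More hubs had an excess downstream (134) than upstream (88), and 1 was even. Partner bins often stood side by side, and 60 hubs had a run of at least 5 consecutive partners.

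Among bins without a linked gene start or end, those with many members included 4 inside genes of neuronal wiring or adhesion. A bin in Plxna2, a semaphorin receptor, had 39 members at chr1:194620001-194630000, all toward lower coordinates. A start of Plxna2 lies 172 bases outside that bin, and the bin touched 7 and 9 listed interactions at E12.5 against 54 and 62 at E16.5. A bin in Cdh13, an atypical cadherin, had 32 members at chr8:118280001-118290000, with 1 and 3 listed at E12.5 against 47 and 70 at E16.5. Unlike the other bins described here it lies far from the gene's ends, the nearest being 139984 bases away.

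Bins of Nrp1 and Efnb2 lay close to a listed start of their gene. A bin of Nrp1 next to its start bin had 23 members, with 7 and 3 interactions listed at E12.5 against 44 and 41 at E16.5. A bin in Efnb2, an ephrin that guides axons and vessels, had 21, with 1 and 6 at E12.5 against 39 and 38 at E16.5. A link by the start bin alone does not credit these members to the genes, since it works at a resolution of 10 kb.

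Joined through shared bins, the members formed 2389 loci. A single member made up 1008 of them, and 200 loci of at least 10 members held 3619 members (40.6%), with a median span of 840 kb. The largest was a gene-rich stretch of chr5:110770001-112230000 with 69 members, holding Pitpnb, Chek2, Hscb, Pus1, Ttc28, Ep400 and Ulk1. Of the 5 largest it had the most members beside contacts of the earlier stage: 54 lay within 1 bin of an E12.5 interaction, and 190 and 160 interactions were listed inside it at E12.5 against 375 and 279 at E16.5.

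In the next loci the bin with the most members held a single neuronal gene. The Prdm8 locus, chr5:97180001-98190000, had 50 members in 1010 kb, and 3 and 0 interactions were listed inside it at E12.5 against 82 and 72 at E16.5. The Myt1l locus, chr12:28580001-29880000, had 49 members, with 6 and 2 listed at E12.5 against 68 and 108 at E16.5. Both were close to empty at E12.5. The Nrp1 locus, chr8:127360001-128370000, had 48 members, with 27 and 18 listed at E12.5 and 100 in each library at E16.5. The Sox11 locus, chr12:26530001-28350000, was the widest of the 5 at 1820 kb, and its 46 members were added to 73 and 86 interactions listed at E12.5, against 161 and 155 at E16.5.

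Members spanned a median of 330 kb, with an interquartile range of 190 to 540 kb. Pairs in all 4 lists spanned a median of 280 kb (170 to 460 kb), and the 1074 pairs in both E12.5 lists and neither E16.5 list spanned 230 kb (140 to 390 kb). Interactions of 500 kb or more made up 29.5% of members, 22.4% of pairs in all 4 lists and 16.8% of pairs listed only at E12.5. At the short end, up to 100 kb, the order was the reverse, with 6.92%, 9.54% and 15.3%. Members were thus the longest of the 3 sets by each of these measures.

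The share of pairs in both E16.5 lists that were members followed distance as well. It was 35.2% at 20 to 100 kb, 39.5% at 110 to 290 kb, 44.3% at 300 to 490 kb, 48.3% at 500 to 690 kb and 50.1% at 700 to 1000 kb. Among pairs with an FDR under 0.000001 in both E16.5 libraries the shares were 17.1%, 15.4%, 15.8%, 19.4% and 23.1%, so the steady rise did not hold below 500 kb for the strongest pairs. The libraries' whole lists also differed: the median distance was 260 kb in each E12.5 library and 300 and 290 kb at E16.5. The mean difference was 35.0 kb (SD 0 and 7.07 kb, n = 2 per stage; two-sided exact permutation test, p = 0.33, the smallest p that 2 against 2 libraries allow).

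**Figure D3:**
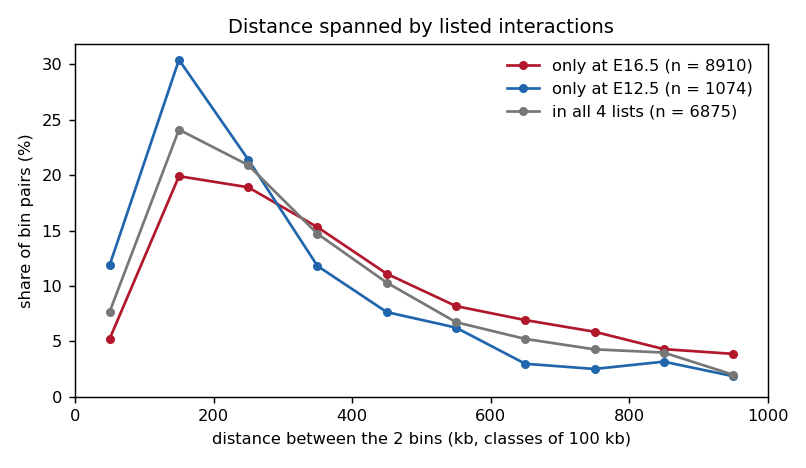
Share of bin pairs in percent (vertical axis) by the distance between the 2 bins in kb, in classes of 100 kb, for interactions listed only at E16.5 (red), only at E12.5 (blue) and in all 4 lists (grey). The red line is lowest in the shortest classes and highest from 500 kb on; pairs at exactly 1000 kb are not drawn.

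In the E16.5 libraries themselves, members were weaker than contacts shared by both stages. A member held a median of 19 read pairs in replicate 1 (interquartile range 14 to 26) and 18 in replicate 2 (13 to 25). Its observed count was a median of 3.89 and 4.18 times the expected count. Pairs in all 4 lists held 32 and 30 read pairs in the same libraries, at 4.62 and 4.90 times the expected count. An FDR above 0.001 was found for 26.7% and 25.4% of members, against 6.88% and 7.05% of pairs in all 4 lists. This was not particular to members. In the E12.5 libraries, pairs listed only at E12.5 held a median of 20 and 18 read pairs, at 3.62 and 3.71 times the expected count. Pairs in all 4 lists held 24 and 23 there, at 4.36 and 4.48 times the expected count. Of pairs in both E16.5 lists, 68.6% were members where the mean was under 15 read pairs, and 13.3% where it was 50 or more, so membership fell steeply with strength.

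Members close to the authors' bound show how narrow it is. A Neurod6 member, chr6:55680001-55690000 with the bin starting at 55880001, had 44 and 18 read pairs and an FDR of 0.00999 in its weaker library. A member at Fam83f on chromosome 15 had 10 and 9 read pairs and the same FDR. Just outside lay a pair on chromosome 4, bins starting at 32070001 and 32240001, which had 28 and 27 read pairs at E16.5. It also had 17 in replicate 1 of E12.5 at an FDR of 0.00999, and so was no member. The values on either side of the bound thus overlap in read pairs.

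Many members also lay next to contacts of the earlier stage. Of the 8910, 3506 (39.3%) were within 1 bin at each end of an interaction in an E12.5 list, and 5404 (60.7%) were not. Both bins took part in other E12.5 interactions for 2223 members (24.9%), 1 bin did for 5302 (59.5%) and neither did for 1385 (15.5%). The most frequent member was therefore a new listed partner for a bin already listed at E12.5. Of the pairs listed only at E12.5, 780 (72.6%) lay within 1 bin of an E16.5 interaction.

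When every list was cut to its 16075 interactions of lowest FDR, the length of the shortest list, 2278 pairs were listed only at E16.5 and 2205 only at E12.5. The excess of E16.5 over E12.5, 8910 against 1074 in the full lists, thus went from a ratio of 8.30 to 1.03. The differences in kind stayed: medians of 340 and 240 kb, 30.6% and 17.4% of pairs at 500 kb or more, and a gene at 75.1% and 61.5% of pairs. The number of hubs came to 77 and 76. At equal length the sets thus differed in distance and in the share with a gene, and little in number. The ratio of 1.03 is largely set by the cut itself, so it says little on the number of contacts at each stage. With lists left unequal it was 9.06 at an FDR under 0.0001 in all lists (4885 against 539). It was 18.4 where a neighbouring bin counted as a match (5404 against 294).

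A gene lay at 1 end of 5697 members (63.9%), at both ends of 764 (8.57%) and at neither end of 2449 (27.5%). The share with any gene, 72.5%, was close to the 73.7% of pairs in all 4 lists and above the 54.7% of pairs listed only at E12.5. Both bins lay in the same gene body in 16.2% of members, against 12.3% of pairs in all 4 lists and 8.85% of pairs listed only at E12.5. Contacts within 1 gene were thus a larger share of the E16.5 set.

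Different genes were joined by 735 members (8.25%), at a median of 290 kb. The highest observed over expected was between Tecta, which encodes a protein of the inner ear's tectorial membrane, and Grik4, a kainate receptor subunit. They lie 550 kb apart on chromosome 9, with 29 and 26 read pairs, 10.7 times the expected count in each library. Gria2, an AMPA receptor subunit, was joined to Tmem144 over 950 kb with 28 and 16 read pairs. Smarca2, an ATPase of BAF chromatin remodellers, was joined to Dmrt2 over 930 kb with 27 and 24. Adcy1, a calcium-stimulated adenylyl cyclase, was joined to Ramp3 over 410 kb with 14 and 23. The Tecta pair lay within 1 bin of an E12.5 interaction, and the other 3 did not.

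Other gene pairs of this kind included genes of general function. Rab11a, a GTPase of recycling endosomes, was joined to Dis3l, an RNA exosome nuclease, over 390 kb with 32 and 26 read pairs. Rpl38, a ribosomal protein gene, was joined to Cpsf4l over 960 kb with 14 and 17. Cntfr, the receptor for ciliary neurotrophic factor, was joined over 190 kb to a bin shared by 1110017D15Rik and Myorg with 13 and 11. Counts this low leave wide counting error on each ratio.

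The longest members reached the limit of 1000 kb. Bcl6, a transcriptional repressor that promotes neuronal differentiation in the cortex, was joined to a bin inside Lpp with 28 and 31 read pairs, 7.94 and 11.3 times the expected count. Rspo3, a Wnt pathway agonist, was joined to a bin inside Trmt11 with 20 and 24, and Plk2 to a bin with no gene with 22 and 23. The strongest members by read pairs were of the opposite kind, short and, of the members with a gene, close to the authors' bound of 2 times the expected count. The pair of bins 20 kb apart at Anp32a and Gm20346 had 293 and 286 read pairs, 2.06 and 2.05 times the expected count. A 40 kb pair at Bahcc1 had 305 and 248, and a 20 kb pair at Foxo6 had 233 and 257. The 10 members with the most read pairs among those with a gene, at most 1 per gene bin, spanned 20 to 60 kb and stood at 2.01 to 2.65 times the expected count.

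Lists of neuronal genes had larger shares with a member than all genes, and so did several other lists, while endothelial, microglial and erythroid markers had no member. Against 15.6% of all genes, 15 of 20 genes of newborn and migrating cortical neurons had a member (75.0%), and 12 had at least 5. Of upper-layer genes 12 of 16 had one (75.0%), of deep-layer genes 13 of 17 (76.5%), and of GABAergic and ganglionic eminence genes 20 of 28 (71.4%). Housekeeping genes had one in 4 of 9 (44.4%), genes that pattern other brain regions in 9 of 21 (42.9%) and diencephalic and choroid plexus genes in 8 of 20 (40.0%), so a share above that of all genes was not limited to neuronal lists, and no test was made between lists. Many of these genes are listed at either stage: of the 8435 genes listed in any library, 38.1% had a member. These lists were chosen with earlier results of the same data known, so the counts describe the lists and support nothing on their own.

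In the list of newborn neurons, Neurod6, a basic helix-loop-helix factor of young excitatory neurons, had 15 members. Its bin was at 0 in both E12.5 lists and at 21 and 15 in the E16.5 lists. Myt1l, Arpp21 and Nrp1 led the list, and Bhlhe22, the partner of Prdm8 in transcriptional repression, had 14 members with 3 and 1 listed interactions at E12.5 against 32 and 18 at E16.5. Among upper-layer genes Lmo4, a LIM-only cofactor, had 18 members with 6 and 9 listed at E12.5 against 34 and 38 at E16.5. Cux1, a homeobox factor of upper-layer neurons, had 11, with 7 and 13 against 24 and 33. Upper-layer genes did not all behave this way: Pou3f3 had 4 members but was listed with 42 and 39 interactions at E12.5 against 38 and 40 at E16.5.

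Among deep-layer genes Tbr1, a T-box factor of corticothalamic neurons, had 13 members with 3 and 3 listed interactions at E12.5 against 27 and 20 at E16.5. Rprm, a cell cycle regulator used as a deep-layer marker, had 9, with 4 and 3 against 22 and 21. Fezf2, a selector gene of subcerebral projection neurons, had 6, with 9 and 10 against 18 and 16. In each of these 3 genes the stages did not overlap, although the rule favours that outcome for any gene with members.

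Synapse and excitability genes had 20 of 35 with a member (57.1%), and 14 of the 35 were listed at E16.5 but at 0 in both E12.5 lists. Over all 20665 genes, 1442 were listed in this way, and 8435 were listed in any library. Gria2 had 20 members with 3 and 3 listed interactions at E12.5 against 29 and 38 at E16.5. Cacna1c, an L-type calcium channel, had 13, with 1 and 3 against 21 and 26. Grin2b, an NMDA receptor subunit, had 11 and went from 0 and 0 to 15 and 20. For this list the E12.5 side was nearly empty, with sums of 20 and 24 listed interactions over all genes against 216 and 263 at E16.5.

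Axon guidance, adhesion and cytoskeleton genes had 26 of 46 with a member (56.5%) and 12 with at least 5. Beside Tenm4, Tnik, Ncam1 and Nrp1 these included Plxna4, a semaphorin receptor, with 20 members and 14 and 10 listed interactions at E12.5 against 39 and 57 at E16.5. Of activity-regulated genes 8 of 18 had one (44.4%): Plk2, Nr4a3 and Egr3, an immediate early zinc finger factor, led with 30, 25 and 6. Egr3 was listed with 9 and 6 at E12.5 against 16 and 22 at E16.5.

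Progenitor genes had members too, but few each, and they sat on bins already listed at E12.5. Of radial glia genes 9 of 23 had a member (39.1%) and 2 had at least 5. Id4, an inhibitor of differentiation, led with 9. Id4 was listed with 41 and 48 interactions at E12.5 against 55 and 57 at E16.5. The radial glia list as a whole summed to 380 and 382 at E12.5 against 381 and 372 at E16.5, so it did not share in the longer E16.5 lists.

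The remaining neural lists held few members per gene. Of intermediate progenitor genes 6 of 12 had one, led by Insm1, a neurogenic zinc finger factor, with 5 members. GABAergic genes were led by Dlx5, a homeobox factor of interneuron precursors, with 14 members and 24 and 13 listed interactions at E12.5 against 48 and 44. Of glial genes 3 of 15 had a member, and of cell cycle genes 3 of 14, each of the latter with 1. Hmga2, which promotes self-renewal of early progenitors, had 0, with 22 and 13 listed at E12.5 and 10 in each library at E16.5.

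Markers of other cells the tissue could hold had few members. Their lists are short, so the sums below do not measure how many such cells were present. Endothelial and pericyte genes (0 of 12), microglia genes (0 of 8) and erythroid genes (0 of 6) had no member, and meningeal genes had 1 of 10, Foxc1 with 3. The endothelial list summed to 5 and 4 listed interactions at E12.5 against 6 and 4 at E16.5, with Pecam1, Cdh5 and Kdr at 0 in all 4 lists. The microglia list summed to 9 and 10, then 5 and 3, with Cx3cr1 and P2ry12 at 0. The erythroid list summed to 2 and 1, then 2 and 2, with Hba-a1 and Hbb-bs at 0. The meningeal list summed to 23 and 21, then 26 and 10, of which Foxc1 held 9 and 11 at E12.5. Over 10 genes this was not low, since the 35 synapse genes summed to 20 and 24 at E12.5. Genes that pattern other brain regions were listed at both stages, with sums of 197 and 136 at E12.5 against 153 and 112 at E16.5. Among them En1, a midbrain and hindbrain homeobox gene, had 6 members, and 7 and 6 listed at E12.5 against 12 and 9. H3K4me3 also marks poised promoters, and what part such regions had in the members was not tested.

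With lists of equal length the gene lists split by direction in the number of genes with an interaction. Synapse genes had an interaction only at E16.5 in 13 of 35 and only at E12.5 in 0 of 35. Newborn neuron genes had 12 against 4 of 20, deep-layer genes 9 against 3 of 17, upper-layer genes 7 against 3 of 16, guidance genes 16 against 7 of 46 and activity-regulated genes 5 against 1 of 18. The order turned for radial glia genes with 5 against 16 of 23, GABAergic genes with 9 against 18 of 28, diencephalic and choroid plexus genes with 0 against 14 of 20, and genes of other brain regions with 1 against 14 of 21. Over all genes the shares were 6.15% and 4.75%. A gene can count on both sides, and no test was made between the lists. By number of interactions the upper-layer list turned, with 15 only at E16.5 and 20 only at E12.5. The other lists named here kept their order.

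**Figure D4:**
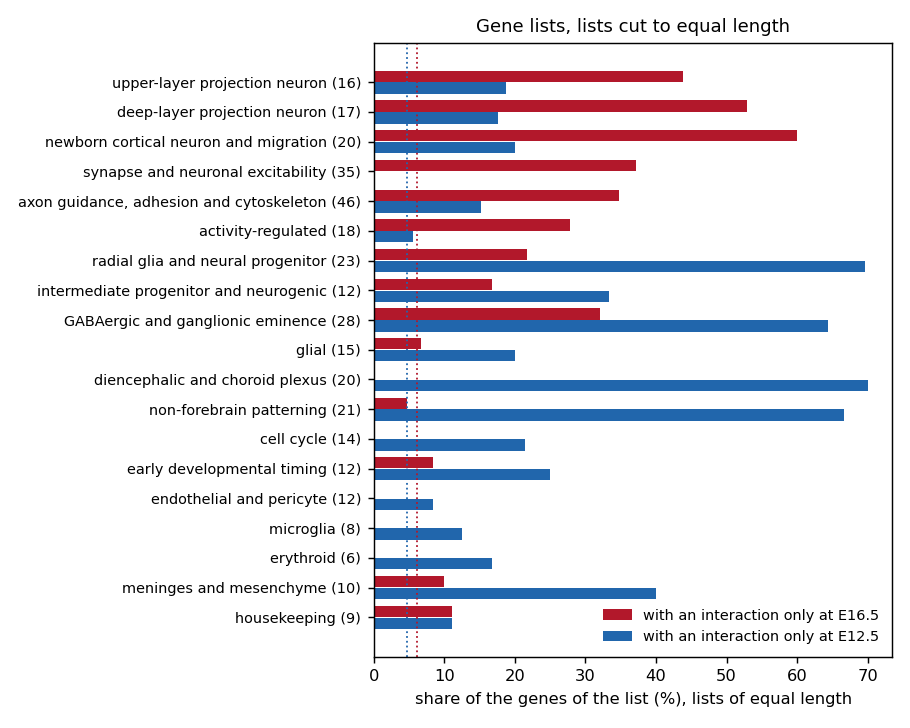
Share of the genes of each list in percent (number of autosomal genes in brackets) with an interaction listed only at E16.5 (red) or only at E12.5 (blue), after every library's list was cut to 16075 interactions. Dotted lines are the same shares over all genes, 6.15% in red and 4.75% in blue. The 6 lists at the top, of neuronal and activity-regulated genes, have the longer red bar. The lists below, GABAergic genes among them, have the longer blue bar, except housekeeping genes with equal bars.

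Members were found on all 19 autosomes, from 237 on chromosome 19 to 750 on chromosome 5. Per 100 bins with a gene, chromosome 12 had the most with 64.0, and chromosome 7 the fewest with 21.1. All pairs in both E16.5 lists were also many for its 727 gene bins on chromosome 12 (1077). They were few for the 2088 gene bins of chromosome 7 (1136). Of the pairs in both E16.5 lists, members made up between 34.8% on chromosome 11 and 50.2% on chromosome 3. The share was 43.2% on chromosome 12 and 38.7% on chromosome 7, against 42.9% over all.

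Whether the hubs' lasting contacts also differed in strength was read from the 6875 pairs listed in all 4 libraries, none of which is a member. By edgeR's quasi-likelihood test with Benjamini-Hochberg adjustment at 0.05, 404 of them (5.88%) held more read pairs at E16.5 and 315 (4.58%) fewer. Of the 1680 that touch a hub, 250 (14.9%) were higher and 8 (0.476%) lower, with a median log2 change of 0.28. Of the 5195 that touch no hub, 154 (2.96%) were higher and 307 (5.91%) lower, with a median of -0.09. The hubs were chosen on the same libraries, so the split by hub is a description with no test and supports nothing about the members. The calls depended on the method: with the authors' expected count as an offset 18 were higher, 11 of them at hubs, and with DESeq2 59 and 38. Without replicate 1 of E12.5 they were 149 and 103, and without replicate 2 of E12.5 132 and 91; the number called lower was 152 and 142 in these fits and 161 without replicate 2 of E16.5.

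**Figure D5:**
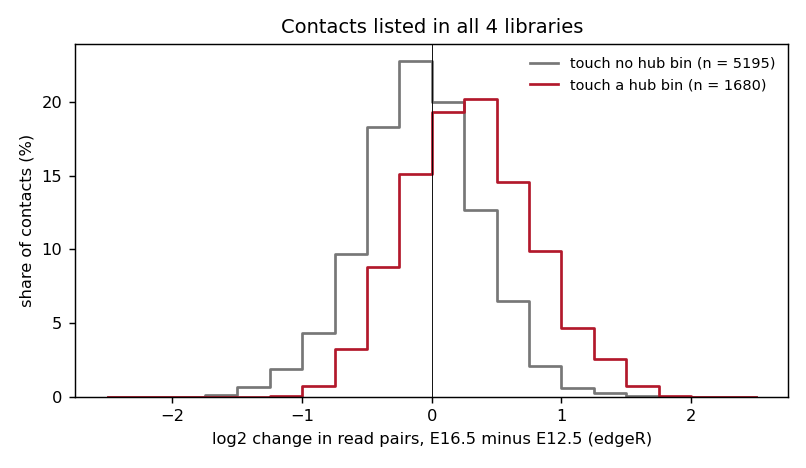
Share of contacts in percent (vertical axis) by log2 change in read pairs from edgeR, E16.5 minus E12.5, in classes of 0.25, for the 1680 contacts that touch a hub bin (red) and the 5195 that touch none (grey), all listed in all 4 libraries. The red outline is shifted to the right, with medians of 0.28 and -0.09.

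At Id2, the contact with the bin starting at 25860001 on chromosome 12, 770 kb away, held 14 and 10 read pairs at E12.5 against 49 and 45 at E16.5. The log2 change was 1.60 (SE 0.30), and the stages did not overlap in read pairs. Runx1t1 had a contact 340 kb away with 15 and 11 read pairs, then 56 and 35, a log2 change of 1.43. Prkce had one 250 kb away with 14 and 13, then 38 and 53, a log2 change of 1.38. These contacts passed the edgeR test (adjusted p = 0.000175, 0.000819 and 0.00119), but they are the top contacts of bins the rule chose. With the expected count as an offset their log2 changes were 1.03, 0.33 and 0.82, with edgeR adjusted p = 0.161, 0.736 and 0.243, so none of the 3 calls was kept. Of the top contacts of these gene bins, that of Sox11 kept its call with the offset. Its log2 change was 0.78 without the offset and 1.12 with it (edgeR adjusted p = 0.0108 and 0.0257). By DESeq2 the Sox11 contact did not pass, with a log2 change of 0.78 (DESeq2 adjusted p = 0.135).

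The 20 gene bins differed in how many such lasting contacts they had, and the calls that follow are those without the offset. Sox11 had 30, of which 1 was called higher, with summed read pairs of 846 and 799 at E12.5 against 1278 and 1009 at E16.5. Id2 had 6, of which 4 were called higher, with 112 and 96 against 285 and 253. These sums are raw, and over all 6875 pairs in all 4 lists the median ratio of E12.5 to E16.5 read pairs was 0.783. In the edgeR fit the median log2 change of these contacts was 0.17 at Sox11 and 1.21 at Id2. Prkce had 7 and Adgrb1 15, of which 5 each were called higher. None of the lasting contacts of these 20 bins was called lower. Prdm8, Cnr1, Tnik, Arpp21 and Myt1l had no contact listed in all 4 libraries, so no strength could be compared at these genes.

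The promoters of hub genes were rich in CG dinucleotides. Over 300 bases, the 288 RefSeq promoters in hub bins had a median of 26 CG dinucleotides (interquartile range 15 to 35), those in bins with 1 to 4 members 22, those in listed bins without a member 19 and those in bins listed in no library 7. At least 10 were found in 87.5%, 84.3%, 75.6% and 44.1%, in that order. Since H3K4me3 itself marks CG-rich promoters, the listed groups are the closer comparison. They were not matched to the hubs in number of listed pairs. The Arpp21 window printed above, with 5, and the Prdm8 window, with 12, lie below the hub median, and those of Cnr1 and Plk2 above it. The order depends on the start: the windows at the other Cnr1 starts in this bin had 33 and 5.

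The motif CAGATG, searched on both strands (its other strand reads CATCTG), is a core bound by neuronal basic helix-loop-helix factors such as Neurod6. It was present in 13.5% of hub promoters, 10.9% of those with 1 to 4 members, 636 of the 5087 listed without a member, 16.3% of unlisted promoters and 14.6% of all 20078. The shares in these windows lie close together, and a match says only that the letters are present.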

How the data were processed

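The samples were 2 H3K4me3 PLAC-seq libraries each of mouse fetal forebrain at E12.5 and E16.5. Per the submitters' processing notes, reads were handled with BWA and SAMtools on build mm10; the sources used here name no versions and no interaction caller. Each deposited file holds the interactions of 1 library between bins of 10 kb and, per the file headers, gives a read-pair count, the authors' modelled expected count (treated as a score), an FDR (a q-value), and a cluster size, summit score and −log10 p by the authors. The listed distances were 20 to 1000 kb on 19 autosomes.

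A member is a bin pair in both E16.5 lists and neither E12.5 list. The members and the gene lists were chosen with earlier results of these data known. Genes (20665, protein-coding, autosomal) were linked by their RefSeq GRCm38.p6 start where given (16452) and otherwise by both gene ends (4213). There were 19 gene lists with 341 symbols, 333 of them on autosomes. Counts of pairs in all 4 lists were tested with edgeR 4.0.16 in R 4.3.3 (TMM, robust quasi-likelihood, stage as the sole term) with Benjamini-Hochberg adjustment at 0.05; the procedure was tested on simulated data. DESeq2 1.42.0 was an alternative, as were lists of equal length, stricter FDR, a neighbouring bin allowed, cluster summits and leaving out each library. Named are the 20 bins of 1 or 2 genes and the 5 bins without a gene that had the most members, the 5 largest loci, the 10 members at a gene with the most read pairs, the 10 between genes with the highest observed over expected, the 3 longest at a gene, the chromosomes with the most and fewest members per gene bin, and the 3 genes of each list with the most members; not all are described, and some items are not reported here. Neurod6, Pou3f3, Fezf2, Grin2b and Plxna4 were added after their values were seen. Replicates differed by more than sampling noise (chi-square per degree of freedom of 1.3 at E12.5 and 1.75 at E16.5). Depth beyond the listed read pairs is unknown, and precision is limited by 2 libraries per stage.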

Additional observations from a re-analysis of the deposited data

How the results depend on the processing

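The number of members, 8910 in the full lists, was 2278 with lists of equal length, 4885 with an FDR under 0.0001 in all lists, 3092 with that bound on the E16.5 lists alone, 5404 where a neighbouring E12.5 bin counted as a match, 1601 among cluster summits, 6506 at 3 times the expected count or more, and 11182 to 22094 when 1 library was left out. Their median distance of 330 kb became 420 kb at 3 times the expected count, 310 kb among summits and 300 to 320 kb with 1 library left out. The share with a gene, 72.5%, was 75.1%, 74.0%, 74.5%, 77.0%, 79.2% and 70.6% under those settings in the order of the first sentence, 65.7% to 74.6% with 1 library left out, 94.2% when the whole gene body counted, and 73.3% with both ends of every gene, an alternative chosen after seeing the data. The 488 hubs became 77 with equal lengths, 205 with the stricter FDR and 278 with neighbouring bins allowed. Of the 20 gene bins, 19 changed their member count by over 1.5 times with equal lengths, which left from 24 members at Prdm8 to 4 at Sox11 and at Btg1. The contacts called higher and lower at E16.5, 404 and 315 (250 higher at hubs), were 18, 0 and 11 with the expected count as an offset (808 at an unadjusted p under 0.05), 59, 39 and 38 with DESeq2, and 132 to 317, 142 to 220 and 91 to 203 with 1 library left out. With a replicate block the numbers were 532, 407 and 310. The labels give no link between same-numbered libraries beyond the number, and the correlation of their deviations was 0.126. The difference in the libraries' median distances was 30 to 40 kb with 1 library left out. The cause of these shifts was not tested, beyond the fewer pairs or libraries each setting leaves. With 7 or more read pairs behind each member, single members are imprecise, and the lists give no value below the authors' threshold.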
